A study of Rattus norvegicus with 12 samples.

Results

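Of 12 small RNA libraries from rat hippocampus, 4 held far more of the muscle-type microRNA (miRNA) miR-133a-3p than the other 8. A library was called high when its miR-133a-3p level was above 200 CPM (counts per 1000000 counts of that library), and the other 8 are called the remaining libraries. The high libraries came from vehicle rats 9, 19 and 20 and from ethanol rat 16, so 3 of the 4 were vehicle, and the remaining libraries came from vehicle rat 10 and from ethanol rats 3, 4, 7, 8, 15, 23 and 24. All rats were adult male Sprague Dawley rats aged P70 to P80, without any genetic change, injected with vehicle (4 libraries) or 4 g/kg ethanol (8 libraries), and the hippocampus was taken 3 h later. The labels name the right hippocampus and the study's text the dorsal hippocampus. Each library is 1 rat. The high and remaining libraries were divided by a measured value and not by the labels, so a p in the comparisons below tells how a miRNA goes with that division and says nothing about treatment. Vehicle rats made up 3 of the 4 high libraries and 1 of the 8 remaining ones, and differences within each treatment are given for the named miRNAs and the marker lists after the pooled ones.

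The miR-1 and miR-133 families are made in skeletal and heart muscle, where they act on muscle growth and differentiation, and their genes lie in pairs that are transcribed together. In the RefSeq annotation the miR-133b gene is next to the miR-206 gene, a skeletal muscle miRNA, and a miR-133a gene is next to the miR-1 gene. miR-208a, miR-208b and miR-499 are encoded in introns of myosin heavy chain genes, and miR-378a in an intron of Ppargc1b, a regulator of mitochondrial metabolism. A mature miRNA finds its targets mainly through its seed, bases 2 to 8 from the 5′ end, and the arm of the hairpin that is not the main product is usually far less abundant. The tissue sampled here is nervous, and miR-9a and miR-124 are typical neuronal miRNAs. Bulk libraries cannot tell a larger number of cells of a type from more RNA per cell.

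The mature sequences of the family are shown because its members differ by few bases, and counts can be shared between such members. They were taken from RefSeq for build GRCr8, read 5′ to 3′, with the seed in capitals.
miR-133a-3p: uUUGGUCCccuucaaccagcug
miR-133b-3p: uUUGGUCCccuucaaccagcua
miR-133a-5p: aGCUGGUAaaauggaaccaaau
miR-1b: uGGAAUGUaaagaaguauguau
miR-1-3p: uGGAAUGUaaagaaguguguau
miR-206-3p: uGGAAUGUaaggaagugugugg
miR-499-5p: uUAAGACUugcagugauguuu
The 2 seeds of the family are UUGGUCC, in miR-133a-3p and miR-133b-3p, and GGAAUGU, in miR-1-3p, miR-1b and miR-206-3p. From miR-133a-3p to miR-133b-3p the only substitution is G22A, counted from 1 at the 5′ end. From miR-1-3p to miR-1b it is G17A. From miR-1b to miR-206-3p there are 4, which are A11G, A17G, A21G and U22G. The deposited estimated counts of miR-133a-3p and miR-133b-3p were fractional in 12 of 12 libraries, so the separate levels of these miRNAs are uncertain. miR-1b was fractional in 3 libraries and miR-133a-5p in 0.

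miR-133a-3p, whose values chose the libraries, measured 454 CPM in vehicle rat 9, 681 CPM in vehicle rat 19, 643 CPM in vehicle rat 20 and 454 CPM in ethanol rat 16. The remaining libraries ranged from 35.4 to 102 CPM with a median of 50.4 CPM, and vehicle rat 10 measured 45.5 CPM. The library just inside the threshold, ethanol rat 16, stood 4.44-fold above the library just outside it, ethanol rat 3. The mean was 558 ± 121 CPM in the high libraries (SD, n = 4) and 61.8 ± 27.0 CPM in the remaining ones (SD, n = 8), a ratio of 9.02. These counts were not small in either set: 1315 to 3348 estimated counts in the high libraries and 88.6 to 253 in the remaining ones. No test is given for this miRNA, since it defined the sets.

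miR-133b-3p, which shares its seed, measured 694, 585, 699 and 719 CPM in vehicle rats 9, 19 and 20 and ethanol rat 16. The remaining libraries ranged from 45.7 to 130 CPM with a median of 71.0 CPM. The sets did not overlap, and their means of 674 ± 60.6 and 78.7 ± 30.1 CPM (SD, n = 4 and 8) had a ratio of 8.57. miR-1b measured 540, 305, 512 and 508 CPM in the same order of high libraries, against 25.4 to 66.1 CPM with a median of 35.4 CPM in the remaining ones. Its means of 466 ± 109 and 38.7 ± 14.2 CPM had a ratio of 12.04, the widest of the 3, and the lowest high library was vehicle rat 19. The gap between the lowest high and the highest remaining library was 4.51-fold for miR-133b-3p and 4.61-fold for miR-1b. No test is given for these 2 either, since they are family members of the miRNA that chose the libraries. Together the 3 miRNAs made up 0.157% to 0.185% of the counts in the high libraries and 0.0108% to 0.0271%, median 0.0147%, in the remaining ones.

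**Figure D1:**
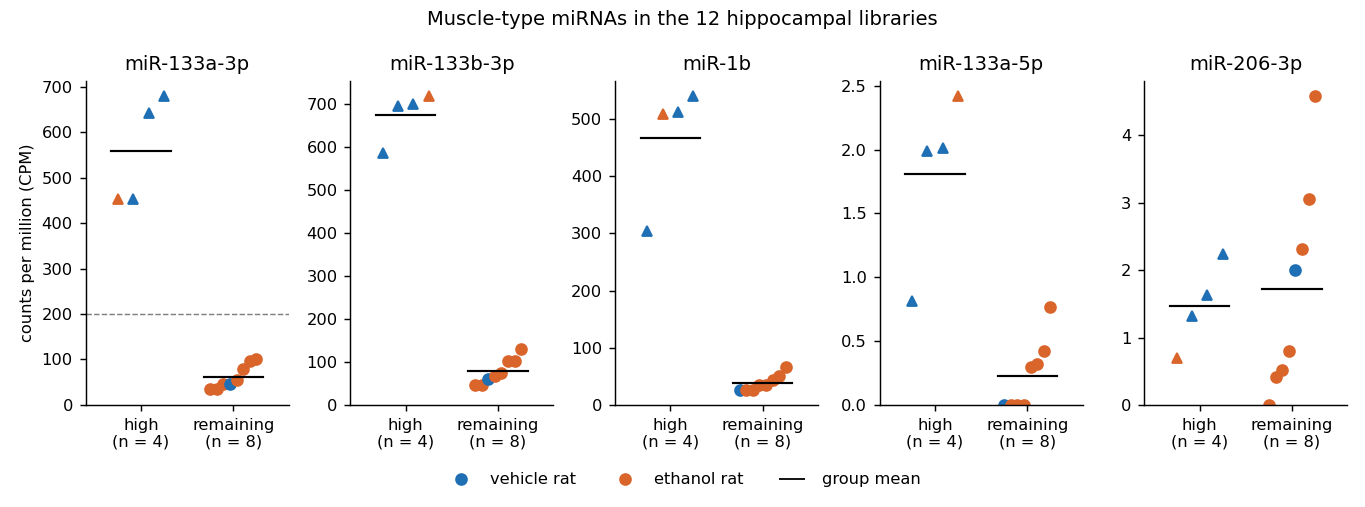
CPM of 5 miRNAs of the miR-133, miR-1 and miR-206 families in each library, with high libraries as triangles, remaining libraries as circles, vehicle rats in blue, ethanol rats in orange and group means as lines; the dashed line is the 200 CPM threshold. The 4 high libraries sit above all 8 remaining ones for miR-133a-3p, miR-133b-3p, miR-1b and miR-133a-5p, whereas miR-206-3p overlaps and stays at or below 4.58 CPM.

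The proportions of these 3 miRNAs to each other overlapped between the sets. The ratio of miR-133b-3p to miR-133a-3p was 0.859 to 1.58 in the high libraries and 0.854 to 1.89, median 1.31, in the remaining ones. The ratio of miR-1b to miR-133a-3p was 0.448 to 1.19 in the high libraries and 0.455 to 0.994, median 0.645, in the remaining ones. The ratio of miR-1b to the sum of miR-133a-3p and miR-133b-3p does not depend on how reads were divided between those miRNAs. It was 0.195 to 0.344, median 0.286, in the remaining libraries. Vehicle rats 9 and 20 and ethanol rat 16 lay above that range, at 0.471, 0.382 and 0.433, and vehicle rat 19 inside it, at 0.241. Each of the 3 miRNAs was still above the floor of detection in every remaining library.

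The other members of the family were scarce, at 10.1 CPM or less in every library. The limit of detection was 3 counts, or 0.610 to 1.53 CPM depending on the library. miR-133a-5p, the minor arm of the miR-133a hairpin, had 6, 4, 9 and 7 counts in vehicle rats 9, 19 and 20 and ethanol rat 16 and between 0 and 2 counts in each remaining library. On the CPM scale this was 0.813 to 2.42 in the high libraries and 0 to 0.768 in the remaining ones, so the sets did not overlap, on few counts. miR-206-3p had 2 to 10 counts in the high libraries and 0 to 11.9 in the remaining ones, a mean of 1.47 ± 0.644 CPM against 1.71 ± 1.57 CPM (SD, n = 4 and 8), and the sets overlapped. miR-1-3p had 0 to 5 counts in the high libraries and 0 to 20.9 in the remaining ones, with the highest value in ethanol rat 3. Both miR-1-3p and miR-206-3p were fractional in 10 libraries. miR-1-5p, miR-133b-5p, miR-133c and miR-206-5p were listed at 0 in all 12 libraries. Of the 10 listed members, 3 (miR-1b and the 3p arms of miR-133a and miR-133b) passed the filter of 10 or more counts in at least 3 libraries. No member of these families entered the tests.

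For miR-133a-3p a higher level within each treatment follows from the division itself, and miR-133b-3p may share its reads. The sizes of the differences within each treatment are therefore given as a description only. The mean of vehicle rats 9, 19 and 20 lay above vehicle rat 10 by 3.68 on the log2 scale for miR-133a-3p, by 3.47 for miR-133b-3p and by 4.10 for miR-1b. Ethanol rat 16 lay above the mean of the other 7 ethanol rats by 2.94, 3.24 and 3.71. For miR-206-3p these differences were -0.29 and -0.40. With a single library on one side of each contrast, no replicate error can be given for them.

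Within the 8 remaining libraries the family members are described without a test, since miR-133a-3p chose the libraries and may share reads with miR-133b-3p. On log2(CPM + 1), Pearson's r with miR-133a-3p was 0.81 for miR-133b-3p, 0.79 for miR-1b and 0.38 for miR-206-3p over 8 libraries, and Spearman's rho was 0.71, 0.60 and 0.26. Without ethanol rats 3 and 8, the 2 libraries farthest from the median of miR-133a-3p, r was 0.60 for miR-133b-3p and 0.57 for miR-1b over 6 libraries. All values were divided by the same library totals.

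The other muscle miRNAs differed far less. miR-499-5p measured 57.0, 57.5, 52.9 and 55.0 CPM (here and below scaled by TMM, the trimmed mean of M values) in vehicle rats 9, 19 and 20 and ethanol rat 16. The remaining libraries ranged from 36.9 to 51.4 CPM with a median of 47.1 CPM, so every high library was above every remaining one. The means were 55.6 ± 2.10 and 45.5 ± 5.23 CPM (SD, n = 4 and 8), a fitted log2 difference of 0.29 ± 0.10 (SE). By the quasi-likelihood test of edgeR it had a raw p under 0.05 and an adjusted p of 0.404. With treatment as a covariate the difference was 0.25 ± 0.13 (SE; adjusted p = 0.533, edgeR), no longer at a raw p under 0.05. miR-378a-5p was 26.0 to 32.9 CPM in the high libraries and 13.3 to 30.7 CPM in the remaining ones, a log2 difference of 0.46 ± 0.20 (SE; adjusted p = 0.423, edgeR). miR-378a-3p, its abundant arm, was 1606 to 1865 CPM against 1113 to 1995 CPM, a log2 difference of 0.20 (adjusted p = 0.581, edgeR). The sets overlapped for both arms of miR-378a.

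miR-208a-5p, from the heart myosin gene Myh6, had 1, 1 and 4 counts in vehicle rats 9, 19 and 20 and 1 count in ethanol rat 16. It had 0 counts in all 8 remaining libraries, which allows up to 0.141 CPM over their pooled 21344745 counts, beside 0.458 CPM over the pooled high libraries. A total of 7 counts is too few to describe a level in any single library. miR-208a-3p and both arms of miR-208b were at 0 in all 12 libraries, and miR-499-3p had at most 3 counts in any library. Of the 8 listed arms of miR-499, miR-208a, miR-208b and miR-378a, 3 were tested, all 3 had a positive difference and 2 had a raw p under 0.05 in edgeR. Over all 417 tested miRNAs 195 (46.8%) had a positive difference and 20 (4.80%) were higher at a raw p under 0.05, and nothing particular to muscle miRNAs is read from 3 members.

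**Figure D2:**
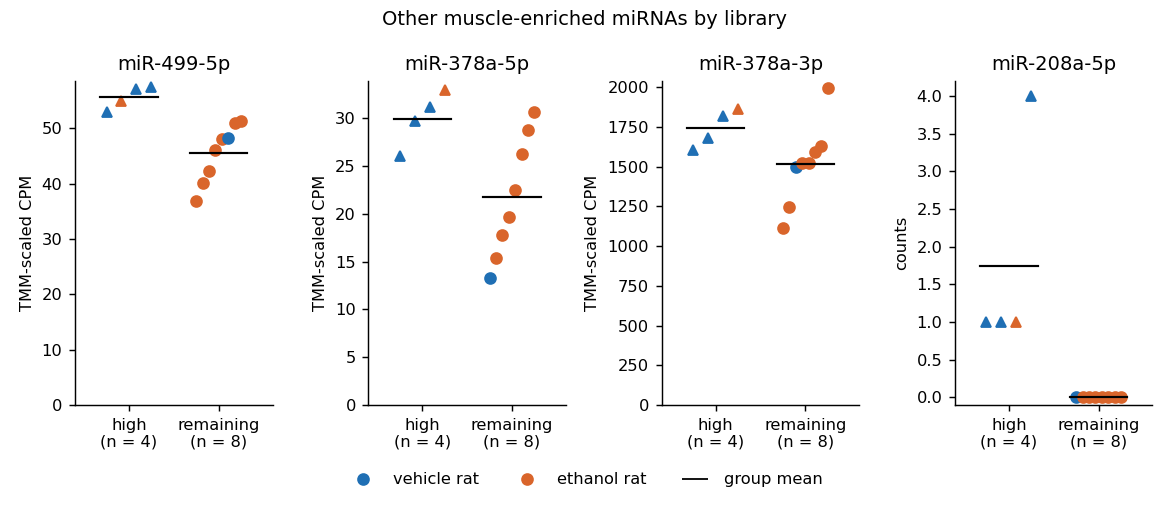
Levels of 4 other muscle-enriched miRNAs in each library, in TMM-scaled CPM for miR-499-5p, miR-378a-5p and miR-378a-3p and in counts for miR-208a-5p; triangles are high libraries, circles remaining ones, and lines are group means. The high libraries lie above all remaining ones for miR-499-5p (52.9 CPM at the lowest against 51.4 CPM) and overlap them for both arms of miR-378a. miR-208a-5p had 1 to 4 counts against 0. Its total of 7 counts, not scaled for the greater depth of the high libraries, is too few to describe a level.

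The high libraries were also deeper. Library totals were 2898042 to 4917928 in the high libraries and 1960704 to 3598771 in the remaining ones, a log2 difference in means of 0.51 (two-sided exact permutation test, p = 0.0485). Leaving out single libraries gave 0.38 (without vehicle rat 19) to 0.63, with p of 0.0606 or more without any of vehicle rats 10, 19 or 20 or ethanol rats 3, 4, 7 or 8. The number of miRNAs with 10 or more counts was 399 to 427 against 376 to 406 (exact permutation p = 0.0242). Those counts were not scaled for depth, so this number rises with the library total and is not a separate result. The total entered as a covariate in an alternative fit.

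Across the other miRNAs the sets were close. Of 753 listed miRNAs, 420 passed the filter, and 417 were tested once those same 3 family members had been left out. By the quasi-likelihood test of edgeR 0 of 417 (0%) had an adjusted p under 0.05, the lowest being 0.0683. At a raw p under 0.05 there were 44 (10.6%), 20 of them higher in the high libraries (4.80%) and 24 lower (5.76%). A raw threshold of 0.05 lets through 20.9 of 417 on average when nothing differs. The 44 miRNAs had log2 differences from -2.22 to 0.92, with a median size of 0.29, and 33 of them differed by less than 0.5. Over all 417 the median log2 difference was -0.02, the median size 0.13, and 2 exceeded 1 in size. DESeq2 gave an adjusted p under 0.05 to 4 of 417 (0.959%), miR-324-5p, miR-125b-2-3p, miR-383-5p and miR-7a-2-3p, and a raw p under 0.05 to 44, of which 39 were also among edgeR's 44. limma gave 0 adjusted and 43 raw.

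**Figure D3:**
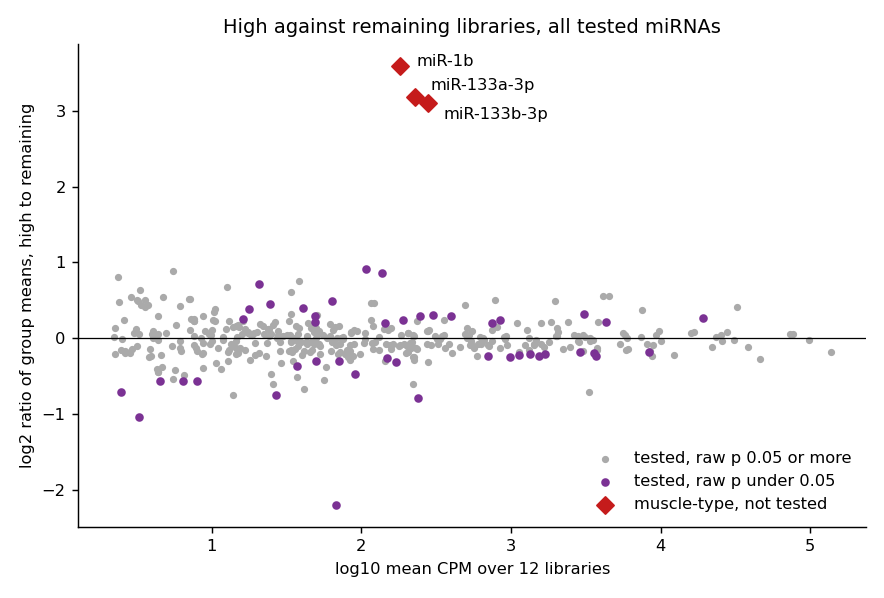
Log2 ratio of the group means, high to remaining, against log10 mean CPM over 12 libraries for 417 tested miRNAs (points, purple where the raw edgeR p was under 0.05) and for miR-1b, miR-133a-3p and miR-133b-3p, left out of the tests (red diamonds). The 3 diamonds lie at ratios of 9.02, 8.57 and 12.04 on the linear scale, apart from all tested miRNAs.

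Treatment and depth were each entered in the fit, since both went with the division. With treatment as a covariate 0 of 417 passed at an adjusted p under 0.05 (lowest 0.0955), 42 had a raw p under 0.05 in edgeR, and all 44 of the miRNAs above kept their sign, 29 of them at a raw p under 0.05. With the log2 library total as a covariate 0 passed (lowest adjusted p 0.559), 24 had a raw p under 0.05 and 16 of these were among the 44. Without ethanol rat 16, the only ethanol rat in the high libraries, the raw count was 25, and without vehicle rat 20 it was 27. Without ethanol rat 8 it was 66.

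The sequences of the miRNAs with the smallest p that RefSeq lists are shown, with seeds in capitals, because they share no seed with each other or with the miR-133 and miR-1 families.
miR-324-5p: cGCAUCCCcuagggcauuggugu
miR-125b-2-3p: aCAAGUCAggcucuugggaccu
miR-7a-2-3p: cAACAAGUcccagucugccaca
miR-324-5p, known to target components of Hedgehog signalling, measured 67.9, 82.7, 79.9 and 84.7 CPM in vehicle rats 9, 19 and 20 and ethanol rat 16. The remaining libraries ranged from 48.7 to 62.7 CPM with a median of 55.9 CPM, all below the high ones. Its means of 78.8 ± 7.54 and 55.9 ± 5.38 CPM (SD, n = 4 and 8) gave a log2 difference of 0.49 ± 0.10 (SE) with an adjusted p of 0.0683 in edgeR, and an adjusted p of 0.0016 in DESeq2. With treatment as a covariate the difference was 0.61 ± 0.12 (SE; adjusted p = 0.0955, edgeR), and with the library total as a covariate it was 0.43. It passed the adjusted threshold in edgeR under library totals, relative log expression or upper quartile scaling and without the filter on low counts. It also passed with the muscle miRNAs kept in TMM and without vehicle rat 9. These adjusted p were 0.0398 to 0.0468, close to the threshold. It did not pass in limma, under the other filters, with either covariate or with any other single library left out.

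miR-125b-2-3p, an arm of a hairpin that also gives the brain miRNA miR-125b-5p, measured 3732, 3319, 3539 and 3566 CPM in the high libraries in the same order. The remaining libraries ranged from 2530 to 3180 CPM with a median of 2847 CPM, and again the sets did not overlap. The log2 difference was 0.33 ± 0.08 (SE; adjusted p = 0.109, edgeR), and 0.34 with an adjusted p of 0.00471 in DESeq2. miR-7a-2-3p, the minor arm of a miR-7a hairpin, measured 33.3, 19.3, 31.8 and 28.4 CPM in the high libraries against 12.9 to 22.5 CPM, median 16.7 CPM, in the remaining ones. Vehicle rat 19 lay among the remaining libraries. Its log2 difference was 0.71 ± 0.16 (SE; adjusted p = 0.109, edgeR), with an adjusted p of 0.0291 in DESeq2. Of the edgeR fits run, it passed only where vehicle rat 19, the high library among the remaining ones, was left out (adjusted p = 0.0190). The study lists miR-7a-2-3p among the miRNAs lowered by ethanol at a p not corrected for multiple tests. The direction is the same here, where 3 of the 4 high libraries were vehicle. These rats are among the study's own, so this direction is not independent of the study's result. The study's other listed miRNAs were not compared with it here. With treatment as a covariate the difference of miR-7a-2-3p was 0.71 ± 0.22 (SE; adjusted p = 0.448, edgeR).

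miR-383-5p was lower in the high libraries, at 190, 166, 144 and 144 CPM in the same order, against 187 to 429 CPM with a median of 270 CPM. Vehicle rat 9 was just above the lowest remaining library. The means of 161 ± 21.8 and 278 ± 76.0 CPM (SD, n = 4 and 8) gave a log2 difference of -0.79 ± 0.19 (SE; adjusted p = 0.132, edgeR), with an adjusted p of 0.00825 in DESeq2. With the library total as a covariate the difference was -0.40 and no longer had a raw p under 0.05.

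The other 7 of the 12 miRNAs with the smallest raw p, beside miR-499-5p, differed little or were scarce. miR-22-3p, an abundant miRNA of heart and brain, was 19327 to 23225 CPM in the high libraries and 15168 to 19791 CPM in the remaining ones, a log2 difference of 0.27. This became 0.196 with treatment as a covariate and 0.205 with the library total as a covariate, neither at a raw p under 0.05 in edgeR. miR-340-5p, miR-434-5p, miR-379-5p and miR-341 were lower in the high libraries by log2 differences of -0.20, -0.21, -0.24 and -0.21. miR-379-5p was 586 to 675 CPM in the high libraries and 684 to 880 CPM in the remaining ones, without overlap. With the library total as a covariate its difference was -0.11, no longer at a raw p under 0.05. miR-380-5p had a difference of -0.54 on 16 to 34 counts per library. miR-31a-3p had one of -1.01 on 3 to 14 counts per library. miR-379-5p, miR-380-5p, miR-434-5p and miR-341 all belong to the imprinted Dlk1-Dio3 cluster.

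**Figure D4:**
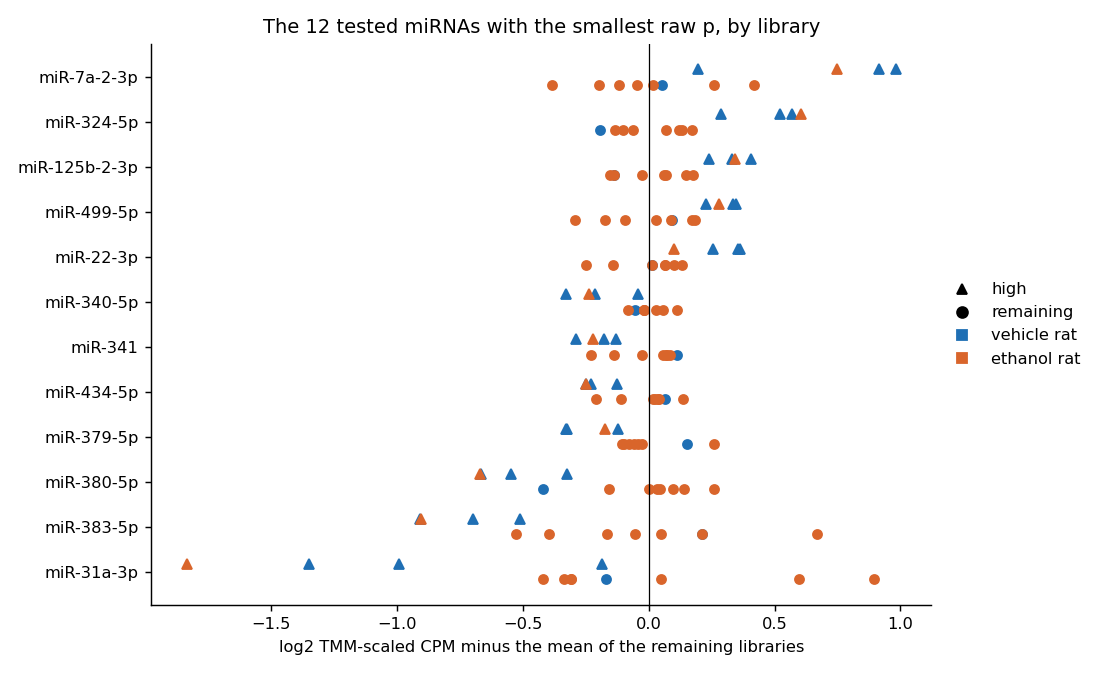
Level of each of the 12 tested miRNAs with the smallest raw edgeR p in each library, as log2 TMM-scaled CPM minus the mean of the remaining libraries; triangles are high libraries and circles remaining ones, with vehicle rats in blue and ethanol rats in orange. The triangles and circles of miR-324-5p, miR-125b-2-3p, miR-499-5p and miR-379-5p do not overlap.

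Counted by library rather than by fit, 3 of 417 miRNAs (0.719%) had all 4 high libraries above all 8 remaining ones, miR-324-5p, miR-125b-2-3p and miR-499-5p, and 2 (0.480%) had all below, miR-379-5p and miR-101b-3p. miR-101b-3p measured 2727, 2763, 2576 and 2577 CPM in the high libraries and 2781 to 3422 CPM in the remaining ones, so its sets were close to touching. The total of 5 became 17 without ethanol rat 8, 16 without vehicle rat 19, 11 without vehicle rat 9, 9 without vehicle rat 20, and 8 without any of vehicle rat 10 or ethanol rats 16 and 24.

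Markers of other cell types were compared by counts and medians, with 0 members passing an adjusted p under 0.05 in edgeR in any list. Over all 417 tested miRNAs, 195 (46.8%) were higher in the high libraries and 222 (53.2%) lower. A raw p under 0.05 in edgeR was given to 44 of them (10.6%). Arms of the same hairpin or cluster are not independent members of a list. All 4 tested arms of miR-143 and miR-145, of vessel wall and smooth muscle, were lower, with a median log2 difference of -0.23 and 0 at a raw p under 0.05, and miR-143-3p was 36010 to 45192 CPM in the high libraries and 29816 to 65752 CPM in the remaining ones. The 2 tested endothelial arms of miR-126 had a median of 0.04, and miR-126a-5p was 1878 to 2339 CPM against 1765 to 2425 CPM. The 3 tested red cell arms, of miR-451 and miR-144, had a median of 0.14, with a summed level of 164 to 246 CPM in the high libraries inside the 61.4 to 312 CPM of the remaining ones. The 4 white cell arms had a median of 0.04 and miR-150-5p measured 469 to 578 CPM against 465 to 669 CPM. The 6 inflammation-linked arms, of miR-155, miR-146a, miR-146b and miR-21, had a median of -0.08, and 5 of the 6 were lower. Blood, vessel and inflammation markers thus overlapped between the sets.

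The choroid plexus and ciliated cell miRNAs varied widely within the remaining libraries. For comparison, 195 of all 417 tested miRNAs (46.8%) had a positive difference and 44 (10.6%) a raw p under 0.05 in edgeR. Of 6 listed arms of miR-204, miR-211 and miR-448, typical of choroid plexus, miR-211-3p was at 0 in every library. The 5 tested arms all had positive differences with a median of 0.51, and 0 had a raw p under 0.05 in edgeR. Their summed level was 37361 to 58133 CPM in the high libraries, within the 16670 to 70926 CPM of the remaining ones. Of 17 listed ciliated and epithelial arms, miR-200b-5p, miR-200c-5p, miR-449a-3p and miR-449c-3p were at 0 in every library. The 7 tested arms all had positive differences with a median of 0.49, and summed to 7523 to 9689 CPM against 2000 to 12156 CPM. Of these miR-34b-3p, of multiciliated cells, had a raw p under 0.05, at 127 to 200 CPM against 29.0 to 189 CPM (log2 difference 0.92 ± 0.39, SE, adjusted p = 0.423, edgeR). The 3 tested arms of the miR-96, miR-182 and miR-183 cluster had a median of 0.43 and 0 at a raw p under 0.05, and the list summed to 388 to 1130 CPM in the high libraries and 169 to 1048 CPM in the remaining ones. The part of these levels in the differences above was not tested.

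Among the miRNAs of the nervous tissue itself, 14 of 21 tested neuronal arms were higher and 7 lower, with a median of 0.02 beside -0.02 over all tested. Of all 417 tested, 195 (46.8%) were higher, 222 (53.2%) lower and 44 (10.6%) had a raw p under 0.05 in edgeR. Among the 21 neuronal arms 1 had a raw p under 0.05, miR-212-3p, which is transcribed with miR-132 and induced by neuronal activity. It measured 275 to 284 CPM against 174 to 280 CPM (log2 difference 0.29, adjusted p = 0.405, edgeR). miR-9a-5p was 22281 to 25116 CPM in the high libraries and 20308 to 24889 CPM in the remaining ones. All 5 arms of the oligodendrocyte miRNAs miR-219a and miR-338 were lower, with a median of -0.22 and 0 at a raw p under 0.05. Of the 2 tested Hox-locus miRNAs, which mark hindbrain and spinal cord, miR-10b-5p was 5.94 to 41.7 CPM in the high libraries and 17.4 to 289 CPM, median 26.7 CPM, in the remaining ones, a log2 difference of -2.22 ± 0.90 (SE; raw p under 0.05, adjusted p = 0.423, edgeR), and its estimated counts were fractional in all 12 libraries. Ethanol rats 3, 4 and 24 measured 155, 172 and 289 CPM, and the other 5 remaining libraries, at 17.4 to 28.3 CPM, lay inside the range of the high ones. With treatment as a covariate its difference was -1.21 ± 1.04 (SE; adjusted p = 0.713, edgeR), no longer at a raw p under 0.05. miR-10a-5p was 2038 to 2979 CPM against 992 to 8758 CPM, and the median of the pair was -1.47. The 3 tested arms of liver and gut miRNAs included miR-375-3p, at 160 to 227 CPM against 25.7 to 228 CPM (log2 difference 0.86 ± 0.38, SE, raw p under 0.05, adjusted p = 0.427, edgeR). The other 2, among them miR-192-5p at 3123 to 3953 CPM against 3224 to 4136 CPM, were lower, and the median was -0.08.

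Within treatments, the 12 miRNAs with the smallest p had the same direction in both. miR-324-5p was higher by 0.65 on the log2 scale in vehicle rats 9, 19 and 20 than in vehicle rat 10, and by 0.58 in ethanol rat 16 than in the other ethanol rats. The same differences were 0.46 and 0.32 for miR-125b-2-3p, 0.64 and 0.75 for miR-7a-2-3p, -0.92 and -0.87 for miR-383-5p and 0.21 and 0.29 for miR-499-5p. Of the other 7, miR-22-3p differed by 0.31 and 0.10 within vehicle and within ethanol, miR-340-5p by -0.14 and -0.24, miR-434-5p by -0.26 and -0.24, miR-379-5p by -0.41 and -0.15 and miR-341 by -0.31 and -0.21. miR-380-5p differed by -0.11 within vehicle and -0.71 within ethanol, and the scarce miR-31a-3p by -0.68 and -1.71. These miRNAs were picked on the pooled difference that both contrasts make up. Among the list members, miR-378a-5p differed by 1.10 and 0.55, miR-378a-3p by 0.18 and 0.32, miR-212-3p by 0.44 and 0.30, miR-34b-3p by 1.32 and 1.47, miR-375-3p by 1.11 and 1.29 and miR-10b-5p by -1.29 and -0.41.

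The medians of the marker lists, within vehicle and then within ethanol, were 0.79 and 0.87 for choroid plexus, 0.95 and 0.84 for ciliated and epithelial arms, 1.40 and 0.78 for the miR-96, miR-182 and miR-183 cluster and 0.31 and 0.63 for red cells. Other muscle miRNAs had medians of 0.21 and 0.32, vessel wall of -0.11 and -0.09, white cells of 0.13 and 0.0073 and Hox loci of -0.64 and -0.27. The direction differed between treatments for oligodendrocytes (0.32 and -0.51), inflammation (0.20 and -0.15) and endothelium (0.17 and -0.06). It also differed for liver and gut (0.13 and -0.05) and for neurons, where both medians were small (-0.07 and 0.0018). These changes of direction were not tested. Over all 417 miRNAs the differences within vehicle and within ethanol, which share no library, had a Pearson r of 0.13 and a Spearman rho of 0.21, and 232 (55.6%) had the same sign. This is a description across miRNAs, which are not independent replicates. In a fit with an interaction of division and treatment, 0 of 417 had an adjusted p under 0.05 (lowest 0.811) and 24 a raw p under 0.05 in edgeR, with a single library in 2 of the 4 cells.

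**Figure D5:**
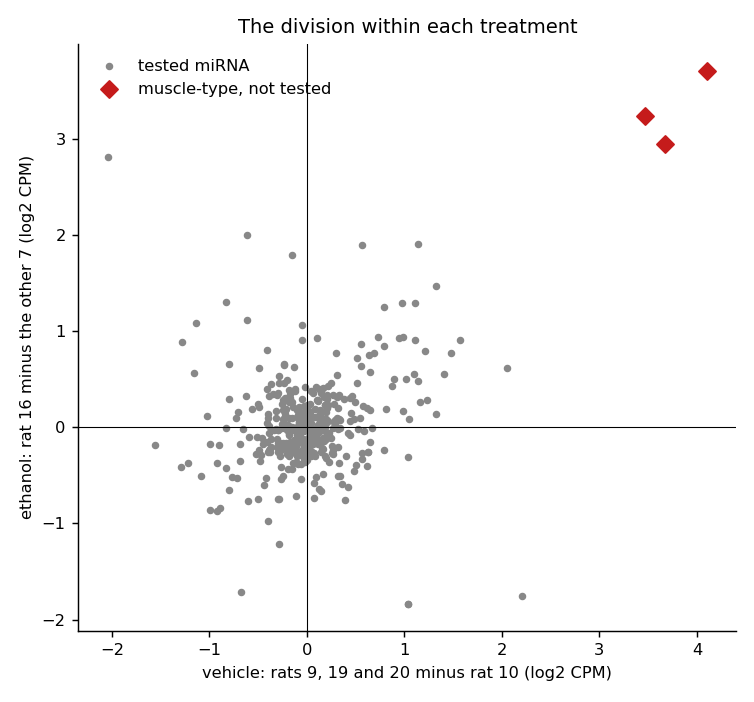
Log2 difference within vehicle (rats 9, 19 and 20 minus rat 10, x axis) against that within ethanol (rat 16 minus the other 7, y axis) for 417 tested miRNAs (grey) and miR-1b, miR-133a-3p and miR-133b-3p (red). The red points lie between 2.94 and 4.10 on both axes, away from the cloud of tested miRNAs, in which 232 of 417 had the same sign. The positive differences of miR-133a-3p follow from the division itself.

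The 5 most abundant miRNAs served as background and differed little. miR-181a-5p had a log2 difference of -0.18, miR-30a-5p of -0.02, miR-26a-5p and miR-26b-5p of 0.06 each and miR-143-3p of -0.27, with adjusted p between 0.581 and 0.888 in edgeR.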

How the data were processed

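Small RNA of 12 adult male rat hippocampi was sequenced, 4 after vehicle and 8 after ethanol; the study names 8 vehicle rats, and the others are not analysed here. The values deposited by the authors are expected counts (estimated counts) for 753 mature miRNAs, unscaled, and the submitters' processing notes name Partek, cutadapt and rn5. The quantification model and miRNA annotation are not given in the sources used here. Between 80.2% and 83.4% of values per library were whole, and reads of related miRNAs may be shared between them. The labels do not say which libraries were sequenced together, so sequencing sets were not compared.

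Counts were rounded to whole numbers for the tests and for TMM-scaled CPM. The CPM used for the division and for the miR-1, miR-133 and miR-206 families was the unrounded estimated count over the library total. The sets were divided at 200 CPM of miR-133a-3p, tested miRNAs had 10 or more counts in at least 3 libraries, and miR-1, miR-133 and miR-206 were left out of the tests. R 4.3.3 with edgeR 4.0.16 (TMM, quasi-likelihood test, Benjamini-Hochberg over 417 miRNAs), limma 3.58.1 and DESeq2 1.42.0 was used. The fit was also run on simulated counts. The changes planted there were larger than nearly all differences found here, so that run does not tell how well smaller ones are found. Single values were compared by exact permutation over all 495 divisions into 4 and 8. Floors (3 counts) cover counting error only, whereas the SD and SE values include variation between rats. No 2 libraries were alike within counting error: over all 66 pairs the lowest chi-square statistic was 38.5 times its degrees of freedom. Each library is a separate rat.

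Named miRNAs were the family members, the 12 smallest raw p, list members with a raw p under 0.05, the most abundant member of each list and the 5 most abundant miRNAs. miR-101b-3p and miR-208a-5p, and the arms listed with them, were named after their values were seen. The members and marker lists were chosen with earlier results of these data known. miR-486, also on the muscle list, was not analysed here, and no value of it was examined. Mature sequences came from RefSeq (GRCr8), which matched 41 of 44 names; the files' build is rn5 and no coordinates are given. Alternatives covered normalization, filters, the test, rounding, treatment and depth as covariates, miR-133a-3p as a number, ethanol libraries only and each library left out. TMM with the muscle miRNAs kept, the interaction fit and the imprinted cluster were added after the data were seen.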

Additional observations from a re-analysis of the deposited data

Results flagged for a closer look

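In 4 of 76 groups of values (38 measures, high and remaining libraries apart), a single library stood apart from the others by Dixon's criterion, where chance gives about 3.8. All gaps are given as a share of the range of the group on the log2 scale. miR-1b in vehicle rat 19 was the lowest of the high libraries, at 8.26 against 8.99 to 9.08 on log2(CPM + 1), a gap of 0.893. miR-434-5p in vehicle rat 9 was the highest of the high libraries, at 10.10 against 9.97 to 9.99, a gap of 0.842. miR-212-3p in vehicle rat 20 was the lowest of the high libraries, at 8.11 against 8.15, a gap of 0.934 in a group whose whole range is narrow. miR-192-5p in vehicle rat 10 was the lowest of the remaining libraries, at 11.66 against 11.84 to 12.01, a gap of 0.527. Vehicle rat 10 is the only vehicle rat among the remaining libraries.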

How the results depend on the processing

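The count of miRNAs with an adjusted p under 0.05 was 0 in edgeR and 1 (miR-324-5p) with relative log expression scaling, library totals alone, upper quartile scaling, no filter, and TMM with the muscle miRNAs kept; it was 4 with DESeq2, and 0 to 1 with single libraries left out (miR-324-5p without vehicle rat 9, miR-7a-2-3p without vehicle rat 19). The count at a raw p under 0.05 was 24 with the library total as a covariate, 23 with ethanol libraries only, and 25 to 66 with single libraries left out. miRNAs without overlap numbered 10 with no filter and 5 to 17 with single libraries left out. The library total difference was 0.38 to 0.63 with single libraries left out. The correlations without the 2 farthest libraries were 0.60 and 0.57. The cause of these changes was not tested.

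The direction of 28 of 34 named miRNAs held under every alternative run, and 6 that lie close to 0 changed sign. With upper quartile scaling miR-146b-5p was 0.00691, miR-150-5p 0.00622 and miR-30a-5p 0.011; without the filter miR-146b-5p was 0.00598 and miR-30a-5p 0.00668. With treatment as a covariate miR-146b-5p was 0.029, miR-9a-5p -0.032, miR-150-5p 0.084 and miR-30a-5p 0.065; with the library total miR-150-5p was 0.11 and miR-26b-5p -0.00053. With miR-133a-3p as a number miR-9a-5p was -0.00876 and miR-150-5p 0.00608. With ethanol libraries only miR-126a-5p was -0.10, miR-146b-5p 0.15, miR-150-5p 0.023 and miR-30a-5p 0.046. With single libraries left out the values ran from -0.0738 to 0.0165 for miR-146b-5p, -0.0175 to 0.0651 for miR-9a-5p, -0.0442 to 0.00769 for miR-30a-5p, -0.071 to 0.0356 for miR-150-5p and -0.00790 to 0.0791 for miR-126a-5p. The median over all tested miRNAs lay between -0.03 and 0.01 under every setting. With 4 high libraries, 3 of them vehicle, the precision is limited by the number of rats and, for miR-208a-5p, miR-133a-5p and miR-31a-3p, by counts of a few reads.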

Other observations

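miRNAs of the imprinted Dlk1-Dio3 cluster were examined because 4 of the 12 miRNAs named for their low raw p belong to it. Of 101 listed arms of hairpins that are neighbours there in RefSeq, 74 were tested. In the high libraries 50 were lower (67.6%) and 24 higher than in the remaining libraries, beside 222 lower (53.2%) and 195 higher of all 417 tested. A raw p under 0.05 in edgeR was given to 8 of the 74 (10.8%), beside 44 of 417 (10.6%) over all tested miRNAs. All 8 were lower, beside 24 of 417 (5.76%) that were lower over all tested. Their median log2 difference was -0.10 beside -0.02 over all tested miRNAs, and -0.18 within vehicle and -0.07 within ethanol. The summed level of the cluster overlapped, at 49108 to 62278 CPM in the high libraries and 50389 to 60743 CPM in the remaining ones, with ethanol rat 16 the highest of all. No test was made of the list, since it was chosen on these values, and nothing particular to the cluster is read from the counts.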
